A study of Sus scrofa domesticus with 34 samples.

Results

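The transcripts described here are those of 10 genes of vitamin D reception and metabolism, chosen by symbol and read by their Ensembl identifiers from 34 pig libraries. They are 10 of the 31907 genes counted, and 8 of the 10 passed the expression filter for tests across genes. The receptor is VDR, its partners are RXRA, RXRB and RXRG, the hydroxylases are CYP2R1, CYP27A1, CYP27B1 and CYP24A1, and PDIA3 and DHCR7 complete the set. CYP24A1 and CYP27B1 did not pass the filter and are given by their counts.

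Vitamin D from skin or feed is inert until it is hydroxylated on carbon 25, mainly by CYP2R1 and also by CYP27A1, and then on carbon 1 by CYP27B1, an enzyme best known from the kidney. The active hormone binds VDR, a nuclear receptor that acts on DNA as a heterodimer with a retinoid X receptor (RXR), and CYP24A1, itself a textbook VDR target, breaks the hormone down. PDIA3 is a disulfide isomerase of the endoplasmic reticulum that has also been described as a membrane-associated binder of the hormone, and DHCR7 turns 7-dehydrocholesterol, the precursor of vitamin D in skin, into cholesterol.

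The study set out to compare the dose and the form of vitamin D in pig feed. Cholecalciferol is vitamin D3, and 25(OH)D is its 25-hydroxylated form, so that animals given only 25(OH)D do not need the first hydroxylation for that supply. Pigs on standard cholecalciferol, the control (n = 8, 4 females and 4 castrated males), were fed 2000 IU of cholecalciferol per kg as growers and 1500 IU as finishers. On increased cholecalciferol (n = 10, 6 females and 4 castrated males) the amounts were 3000 and 2500 IU. The combination (n = 8, 4 females and 4 castrated males) added 1000 IU of 25(OH)D per kg in each phase to the control diet. The last group, on 25(OH)D with no cholecalciferol, received 2000 and 1500 IU of it (n = 8, again 4 of each sex). All groups thus received vitamin D, and none was deficient by design. Age, breed and the muscle sampled are not given in the labels.

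Each library was made by QuantSeq 3′ sequencing, in which 1 read stands for the 3′ end of 1 transcript, so that counts need no correction for length. Levels of different genes can still differ in how much of their 3′ end the annotation holds. Levels are given in CPM, the counts of a gene per 1 M (M, mega) gene counts of its library. Depth was 1.34 to 30.4 M gene counts per library (median 6.67 M). Libraries with file numbers 25 to 29 held 16.8 to 30.4 M and those with numbers 30 to 34 held 1.34 to 2.69 M, and the latter were 4 of the 8 combination libraries and 1 of the 25(OH)D libraries. In the 4 libraries labelled female among numbers 30 to 34, the summed level of the Y-linked genes EIF1AY and KDM5D was 5.71 to 7.83 CPM. The other 14 female libraries lay at 0.588 to 4.77 CPM and the 16 castrated male libraries at 6.70 to 24.5 CPM, so that these 4 did not match their sex label clearly.

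All libraries are labelled as muscle. Skeletal muscle transcripts were present in each, 10 of 10 matched markers being above 0 in all 34 libraries, with a summed level of 1041 to 7105 CPM. These markers were uneven, and ACTA1 (median 1322 CPM) and TNNC2 (836 CPM) gave most of the sum. MYL1 (5.96 CPM), TCAP (6.84 CPM) and MYOZ1 (21.0 CPM) were low, so that the sum is no measure of muscle content. Neuronal markers were above 0 in all libraries too (5 of 5, summed level 2297 to 8405 CPM), and the summed level was 2435 to 14612 CPM for oligodendrocyte, 1860 to 6793 CPM for astrocyte and 75.3 to 300 CPM for microglia markers. The data therefore go against a pure muscle tissue, and levels below are those of the library as sequenced. In such bulk RNA, fewer cells of a type and less RNA per cell cannot be told apart. The cerebellar markers summed to 292 to 3113 CPM and the forebrain markers to 8.05 to 138 CPM. A regional score was therefore used, the mean log2 CPM of CBLN1 and CBLN3, made by cerebellar granule cells, minus that of TBR1 and FEZF2, made by cortical neurons. It ran from 2.39 to 9.63 with a largest step of 0.72 between neighbouring libraries, and its mean ± SD was 5.00 ± 2.88 on standard cholecalciferol, 4.40 ± 2.38 on increased cholecalciferol, 5.36 ± 1.78 on the combination and 4.57 ± 1.79 on 25(OH)D. Markers of the kidney, the main site of hormone synthesis, summed to 2.24 to 11.1 CPM, and those of the intestine to 0 to 6.10 CPM. Of the 6 kidney markers, AQP2 was at 0 in every library and SLC12A1 was above 0 in all, at 0.921 to 8.32 CPM (median 3.05 CPM). Further marker lists summed to 160 to 1239 CPM (liver), 2.76 to 169 CPM (choroid plexus) and 71.4 to 180 CPM (endothelium).

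The 10 transcripts lay at very different levels. Over the 34 libraries the median level was 36.0 CPM for PDIA3, 27.96 CPM for RXRB, 14.5 CPM for RXRA, 10.5 CPM for CYP27A1, 4.67 CPM for CYP2R1, 4.56 CPM for RXRG, 3.71 CPM for DHCR7 and 2.77 CPM for VDR. CYP24A1 followed at 0.0239 CPM and CYP27B1 at 0. The order RXRB above RXRA held in 33 of the 34 libraries, CYP27A1 above CYP2R1 in 33, and VDR above CYP24A1 in 34. PDIA3 exceeded RXRB in 25 libraries, RXRA exceeded CYP27A1 in 25, and DHCR7 exceeded VDR in 22. CYP2R1 exceeded RXRG in 16 libraries and RXRG exceeded DHCR7 in 17, so that these 3 neighbours in the order did not separate beyond their spread. VDR was read 999 times in all libraries together, against 10188 times for PDIA3, so that VDR values rest on few reads where depth was low.

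**Figure D1:**
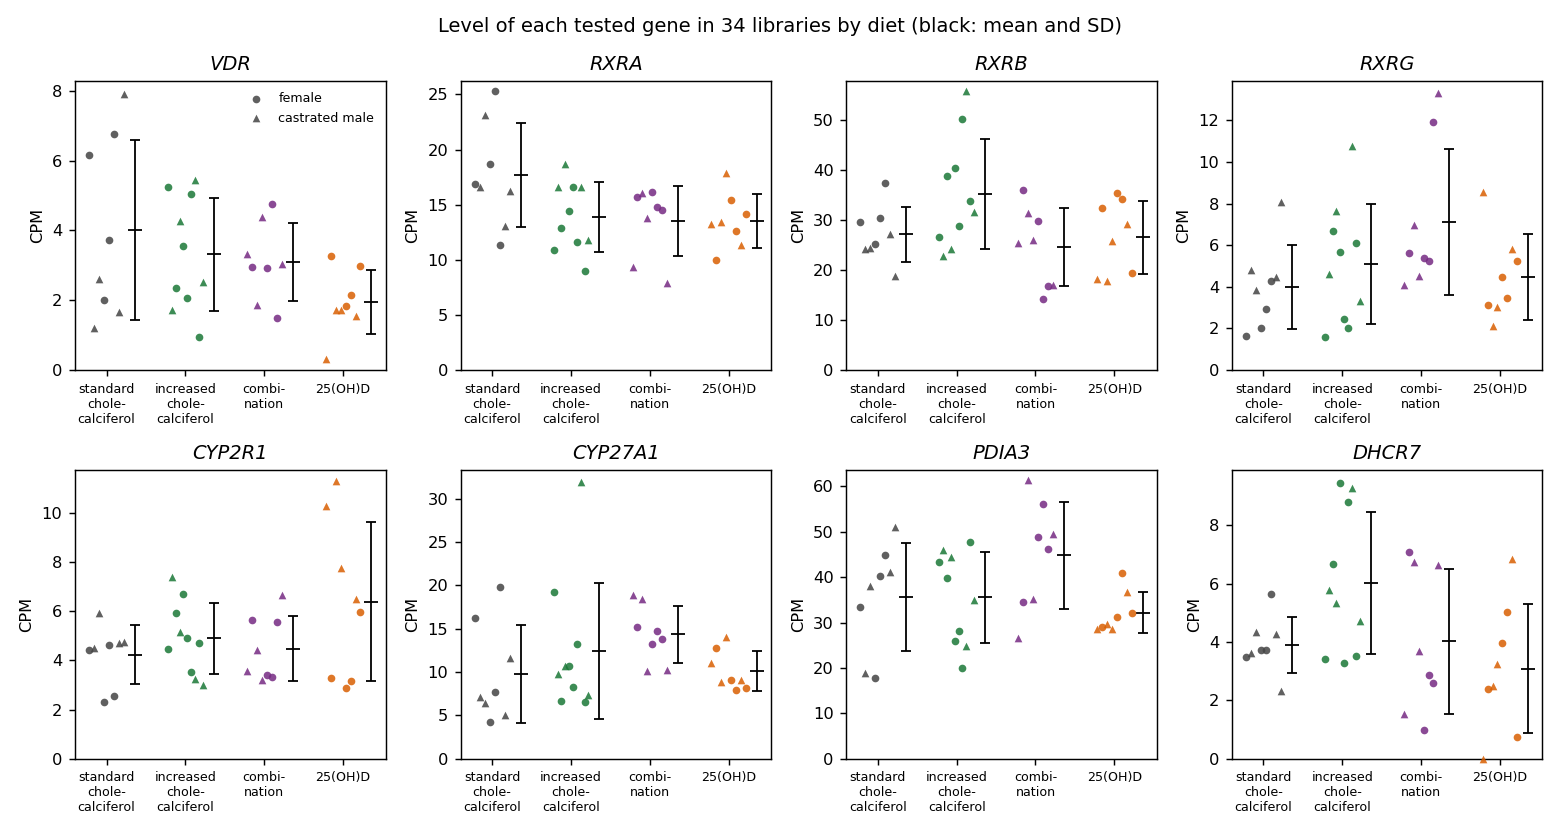
Level in CPM (vertical axis, linear, from 0) of the 8 tested genes in each library by diet (horizontal axis); circles are females, triangles castrated males, and black marks give the mean and SD. The diets overlap for every gene, and RXRG reaches its highest level, 13.3 CPM, in a combination library.

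Diet was tested in 6 pairwise comparisons with edgeR's quasi-likelihood test over 13974 genes, and none of the 8 tested members passed an adjusted p of 0.05 in any of them. The share of all tested genes called was 0% in each of the 6. DESeq2 and limma-voom also called 0 genes in each. Comparisons that share a diet share its libraries. Before adjustment, at p below 0.05, 1 member of 8 differed between increased and standard cholecalciferol (7.77% of all genes), 3 between the combination and standard (4.34%), 2 between 25(OH)D and standard (3.23%), 1 between the combination and increased cholecalciferol (4.14%), 0 between 25(OH)D and increased cholecalciferol (12% of all genes) and 1 between 25(OH)D and the combination (7.57%). The median difference of the 8 members was 0.28 on the log2 scale for increased against standard cholecalciferol, beside 0.01 over all genes, and −0.26 for 25(OH)D against the combination, beside −0.01. In the other 4 comparisons it lay between −0.12 and 0.01. The 95% interval stayed within 1 log2 unit of 0 for 4 to 7 of the 8 members, depending on the comparison, and it reached past a 2-fold difference for the others. Between females and castrated males 0 of the 8 members were called, beside 0.0787% of all genes, and 2 had an unadjusted p below 0.05 (6.58% of all genes). DESeq2 and limma-voom called none of the members for sex either.

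**Figure D2:**
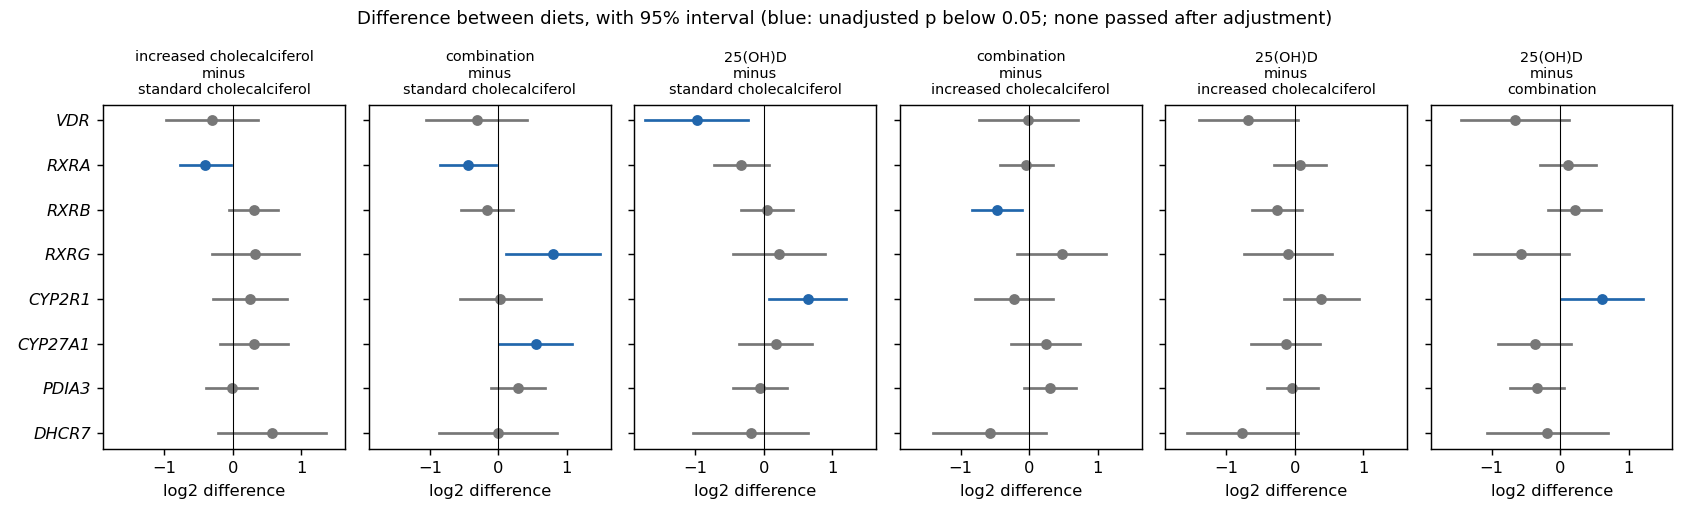
Log2 difference (horizontal axis) of each tested gene (rows) in the 6 comparisons of diets, with the 95% interval as a line; blue points have an unadjusted p below 0.05 and none passed after adjustment. VDR in 25(OH)D against standard cholecalciferol, at −0.98, is the point farthest from 0.

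VDR, the receptor, was lowest in the 25(OH)D libraries by its median, without a call. Its level was 1.21 CPM at the lowest, 3.16 at the median and 7.90 at the highest on standard cholecalciferol. The corresponding levels were 0.941, 3.05 and 5.45 CPM on increased cholecalciferol, 1.49, 2.98 and 4.76 CPM on the combination, and 0.312, 1.78 and 3.28 CPM on 25(OH)D. The diets overlapped, but 4 of the 8 standard libraries lay above the highest 25(OH)D library. The 3 highest of them, at 7.90, 6.75 and 6.17 CPM, had regional scores of 7.24, 8.26 and 9.63. Against standard cholecalciferol the difference for 25(OH)D was −0.98 on the log2 scale (SE 0.37, 95% interval −1.73 to −0.23, unadjusted p = 0.0122, adjusted p = 1.00 by edgeR's quasi-likelihood test). With the regional score as a further term it was −0.82, and within file numbers 1 to 24 it was −0.65. The part of the regional score in the difference was not tested further.

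Along the regional score VDR had a positive slope that did not pass adjustment. In the 5 libraries with the highest scores its level was 3.33 to 6.75 CPM, and in the 5 with the lowest 2.05 to 5.06 CPM, ranges that overlap. The slope was 0.12 on the log2 scale per unit of score (SE 0.05, 95% interval 0.01 to 0.22, adjusted p = 0.0736 by edgeR's quasi-likelihood test). It passed with limma-voom (adjusted p = 0.0259), without terms for diet and sex (adjusted p = 0.0303) and in 3 of the 34 fits that left out 1 library, those without 25(OH)D replicate 1 (adjusted p = 0.0376), increased cholecalciferol replicate 7 (0.0406) or combination replicate 4 (0.0322). With all 6 tissue scores in 1 fit it was 0.06 (adjusted p = 0.721).

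**Figure D3:**
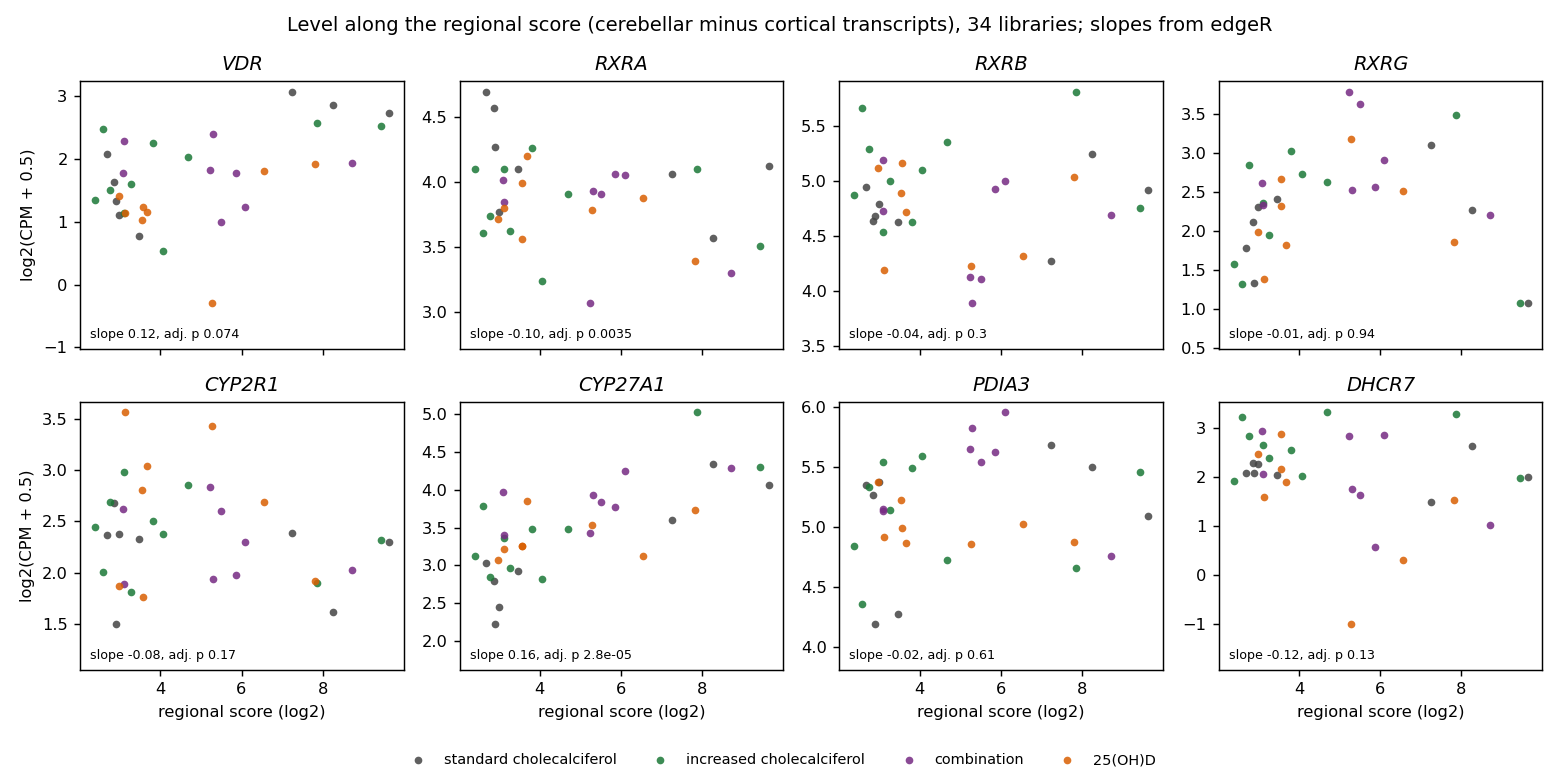
Level as log2(CPM + 0.5) (vertical axis) of the 8 tested genes against the regional score on a log2 scale (horizontal axis), 1 point per library, coloured by diet, with the slope and adjusted p from edgeR in each panel. CYP27A1 climbs from left to right (slope 0.16) and RXRA declines (slope −0.10).

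Of the 8 tested members, 2 were called along the regional score, 1 upward (CYP27A1) and 1 downward (RXRA). This score moved a large part of the transcriptome, with 37.6% of 13970 genes called (19.3% upward and 18.3% downward), so that 2 of 8 is no more than the background. The members' median slope was −0.03, beside 0.00387 over all genes.

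RXRA, the first of the 3 retinoid X receptors and present in most tissues, was at 11.4, 16.7 and 25.3 CPM (lowest, median, highest) on standard cholecalciferol. On increased cholecalciferol it was at 8.94, 13.7 and 18.7 CPM, on the combination at 7.86, 14.6 and 16.1 CPM and on 25(OH)D at 9.99, 13.3 and 17.9 CPM. All groups overlapped, and the 2 highest libraries of all, at 25.3 and 23.2 CPM, were both standard cholecalciferol libraries. Their regional scores were 2.68 and 2.86, near the foot of a score that ran from 2.39 to 9.63. Without adjustment RXRA differed from standard cholecalciferol by −0.40 on the log2 scale with increased cholecalciferol (SE 0.18, unadjusted p = 0.0352, adjusted p = 0.627 by edgeR's quasi-likelihood test) and by −0.44 with the combination (SE 0.20, unadjusted p = 0.0323, adjusted p = 0.999). Both comparisons share the standard cholecalciferol libraries. Within file numbers 1 to 24 the values were −0.63 and −0.77, the farthest from 0 among 9 alternatives. The nearest to 0 were −0.32 and −0.34, and none of the 9 called RXRA in either comparison. The part of the regional score in these differences was not tested further.

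RXRA fell along the regional score. Its level was 9.34 to 16.9 CPM in the 5 libraries with the highest scores and 11.6 to 25.3 CPM in the 5 with the lowest, so that the ends of the score overlapped. The slope was −0.10 per unit (SE 0.03, adjusted p = 0.00352 by edgeR's quasi-likelihood test), a level 0.607 times as high at the top of the score as at its foot (95% interval 0.461 to 0.801). Within file numbers 1 to 24 the slope was −0.10 as well (adjusted p = 0.0142). With all 6 tissue scores in 1 fit it was −0.03 (adjusted p = 0.708), so that the call was lost there.

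RXRB, the most abundant of the 3, was at 18.8, 26.2 and 37.4 CPM (lowest, median, highest) on standard cholecalciferol and 22.7, 32.6 and 55.6 CPM on increased cholecalciferol. On the combination it was at 14.3, 25.7 and 36.0 CPM and on 25(OH)D at 17.8, 27.5 and 35.4 CPM. The combination and increased cholecalciferol, which match in total dose and differ in the form of the added vitamin, overlapped and differed by −0.47 (SE 0.18, 95% interval −0.84 to −0.10, unadjusted p = 0.0135, adjusted p = 0.931 by edgeR's quasi-likelihood test). The 3 lowest combination libraries, at 14.3, 16.7 and 16.9 CPM, were all among file numbers 30 to 34. Without those file numbers the difference was −0.14. Along the regional score the slope of RXRB was −0.04 (adjusted p = 0.300).

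RXRG, the retinoid X receptor known for high expression in skeletal muscle and parts of the brain, was at 1.61, 4.07 and 8.05 CPM (lowest, median, highest) on standard cholecalciferol and at 1.59, 5.14 and 10.7 CPM on increased cholecalciferol. On the combination it was at 4.09, 5.51 and 13.3 CPM and on 25(OH)D at 2.11, 3.96 and 8.58 CPM. The groups overlapped, with the lowest combination library close to the median of standard cholecalciferol. The difference between the combination and standard cholecalciferol was 0.79 (SE 0.34, 95% interval 0.11 to 1.48, unadjusted p = 0.0235, adjusted p = 0.999 by edgeR's quasi-likelihood test). It was 0.26 without file numbers 30 to 34, which held the combination libraries at 13.3 and 11.9 CPM, and 0.28 by limma-voom. Skeletal muscle transcripts differed between these groups in the same direction, with a muscle score (the mean log2 CPM of the 10 matched muscle markers) of 5.83 ± 0.53 (SD) on standard cholecalciferol and 6.51 ± 0.46 on the combination, beside 6.33 ± 0.40 on increased cholecalciferol and 6.22 ± 0.71 on 25(OH)D. Their part in the difference was not tested. RXRG was also lower in females than in castrated males without adjustment (−0.49, SE 0.23, unadjusted p = 0.0381, adjusted p = 0.735).

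RXRG rose with skeletal muscle transcripts. The muscle score ran from 4.80 to 7.28. In the 4 libraries with the highest muscle scores RXRG was at 8.58, 5.22, 13.3 and 11.9 CPM. In the 4 with the lowest it was at 1.61, 2.11, 3.01 and 2.01 CPM, with no overlap between these ends. The slope was 0.93 on the log2 scale per unit of score (SE 0.18, 95% interval 0.56 to 1.30, adjusted p = 0.00183 by edgeR's quasi-likelihood test), or 4.95-fold over the range of the score (95% interval 2.64 to 9.31). RXRG was the only member called along this score, which called 0.881% of 13964 genes (0.831% upward), and it ranked 68 among them by p. It was called in all 34 fits that left out 1 library, with slopes of 0.86 to 0.98, and with all 6 scores in 1 fit (0.89, adjusted p = 0.0151). Of the 4 highest muscle scores, 3 belonged to libraries among file numbers 30 to 34. Without these file numbers the slope was 0.89 (adjusted p = 0.0447), and within file numbers 1 to 24 it was 0.85 and no longer passed (adjusted p = 0.247). Along the regional score RXRG had a slope of −0.01 (adjusted p = 0.940), and the sign turned in some alternatives.

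**Figure D4:**
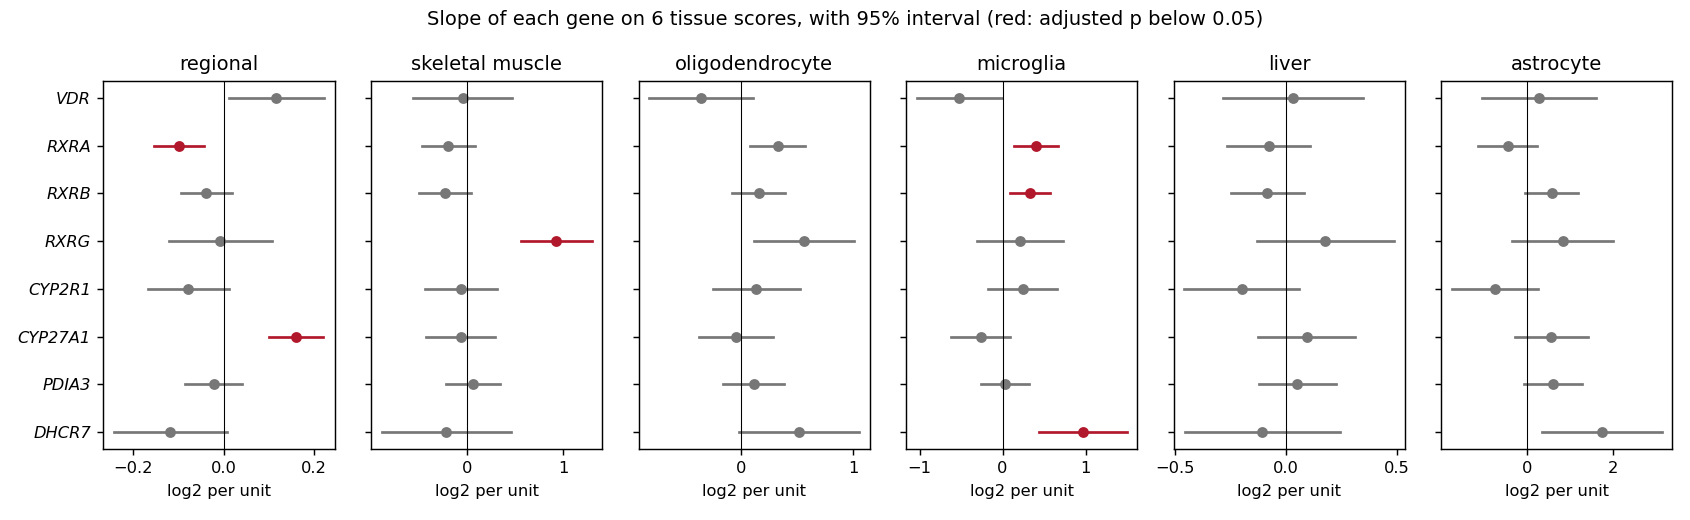
Slope on the log2 scale per unit of score (horizontal axis, a different scale in each panel) of the 8 tested genes (rows) on 6 tissue scores, each fitted alone with diet and sex, with the 95% interval as a line; red marks an adjusted p below 0.05. RXRG is the sole red point on the skeletal muscle score, at 0.93.

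The receptors that share RXR as a partner were taken as a list of 15, of which 10 passed the filter. Along the regional score 2 were called upward and 2 downward, 4 of 10 beside 37.6% of all genes, which is close to the background. THRB, a thyroid hormone receptor, fell by 0.35 per unit (adjusted p = 5.26e-17) and THRA, the other thyroid hormone receptor, by 0.06, while NR4A2, an orphan receptor that can pair with RXR, rose by 0.13 and NR1H2, a liver X receptor, by 0.07. The median slope of the list was −0.04. Among 12 coactivators and corepressors used by VDR, 6 were called upward and 1 downward, beside 37.6% of all genes called (19.3% upward and 18.3% downward), with a median slope of 0.05 beside 0.00387 over all genes. BAZ1B, a chromatin remodeller subunit (0.14), TRIM24, a coregulator with a bromodomain (0.11), and the acetyltransferases EP300 (0.08) and CREBBP (0.06) rose along the score, with NCOA1 and MED1 making up the 6, and SMARCA4, a remodeller ATPase, fell by 0.06. On the microglia score 5 of the 12 coregulators were called, all downward (BAZ1B, EP300, SNW1, TRIM24 and CREBBP, −0.63 to −0.21), beside 14% of all genes called downward. The microglia score ran against the regional score (r = −0.66). BAZ1B, EP300, TRIM24 and CREBBP were called on both, so that the 2 results are not separate. With all 6 scores in 1 fit, calls over all genes on the microglia score fell from 4057 to 212. Neither list was read in that fit. Of the 10 receptors 1 was called upward (THRB) and 2 downward (NR4A2 and NR1H2). That is close to the background on this score, 29% of all genes called (15% upward and 14% downward). No gene of either list was called in a comparison of diets or sexes.

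CYP2R1, regarded as the principal 25-hydroxylase, and CYP27A1, a mitochondrial sterol 27-hydroxylase that also acts on carbon 25, are described in turn. CYP2R1 was called in no comparison and on no score. It was at 2.32, 4.58 and 5.92 CPM (lowest, median, highest) on standard cholecalciferol and 3.01, 4.82 and 7.38 CPM on increased cholecalciferol. It was at 3.19, 4.00 and 6.65 CPM on the combination and at 2.90, 6.24 and 11.3 CPM on 25(OH)D. The 25(OH)D libraries had the widest spread, and within them the 4 castrated males (6.51, 7.75, 10.3 and 11.3 CPM) all lay above the 4 females (2.90, 3.16, 3.28 and 5.97 CPM). One of these females, at 5.97 CPM, is among file numbers 30 to 34, and the pattern was picked out after the values were seen. The diets overlapped. CYP2R1 differed by 0.64 between 25(OH)D and standard cholecalciferol (SE 0.28, 95% interval 0.07 to 1.21, unadjusted p = 0.0284, adjusted p = 1.00 by edgeR's quasi-likelihood test) and by 0.61 between 25(OH)D and the combination (SE 0.29, 95% interval 0.01 to 1.21, unadjusted p = 0.0463, adjusted p = 0.655). The first difference was 0.47 within file numbers 1 to 24 and 0.37 with a term for the run of file numbers. Over all diets the difference between females and castrated males was −0.42 (SE 0.20, unadjusted p = 0.0437, adjusted p = 0.742). An interaction of diet and sex was not tested. Along the regional score the slope was −0.08 (adjusted p = 0.166).

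CYP27A1 rose along the regional score. It stood at 16.2, 19.2, 18.9, 19.8 and 31.9 CPM in the 5 libraries with the highest scores, in falling order of score. In the 5 with the lowest scores it was at 8.21, 13.3, 7.70, 6.67 and 6.44 CPM, so that the ends did not overlap. The slope was 0.16 per unit (SE 0.03, 95% interval 0.10 to 0.22, adjusted p = 2.83e-05 by edgeR's quasi-likelihood test), which amounts to 2.24-fold over the range of the score (95% interval 1.66 to 3.02). By p it ranked 1463 among 13970 genes, so that many other genes followed the score more closely. The call held in all 13 alternatives (0.14 to 0.23) and in all 34 fits that left out 1 library (0.13 to 0.17). Within file numbers 1 to 24 the slope was 0.14 (adjusted p = 0.00170). Along the other 5 tissue scores CYP27A1 was not called.

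By diet, CYP27A1 was at 4.17, 7.39 and 19.8 CPM (lowest, median, highest) on standard cholecalciferol, 6.59, 10.2 and 31.9 CPM on increased cholecalciferol, 10.1, 14.3 and 18.9 CPM on the combination and 7.89, 9.08 and 14.0 CPM on 25(OH)D. The combination libraries all lay above the standard median, yet the groups overlapped through the 3 highest standard libraries, at 19.8, 16.2 and 11.6 CPM. The difference was 0.54 (SE 0.26, 95% interval 0.01 to 1.07, unadjusted p = 0.0447, adjusted p = 0.999 by edgeR's quasi-likelihood test), and 0.85 within file numbers 1 to 24. With the regional score as a further term it was 0.60.

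Genes that serve these enzymes were counted next, along a score on which 37.6% of all genes were called. Of 5 matched electron donors of cytochrome P450 enzymes, all tested, 1 was called along the regional score: FDXR, the reductase that feeds mitochondrial P450s, rose by 0.09 (adjusted p = 0.0111). Of 6 matched oxysterol and bile acid hydroxylases, 3 were tested and 1 was called: CYP46A1, the cholesterol 24-hydroxylase of neurons, fell by 0.27 (adjusted p = 1.03e-12). CYP7A1, the rate-limiting enzyme of bile acid synthesis, was read 65 times in all libraries together. Of 5 genes of vitamin D uptake and transport, 2 were tested and both were called. LRP2, the endocytic receptor megalin, rose by 0.34 (adjusted p = 0.00410) and its adaptor DAB2 fell by 0.08 (adjusted p = 0.0139). The slope of LRP2 rests on few reads, with a median of 1.09 CPM, 315 counts in all libraries together and 0 counts in 4 libraries. GC, the vitamin D binding protein made by liver, did not pass the filter and ranged from 0 to 21.7 CPM. No gene of these 3 lists was called between diets or sexes.

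PDIA3 had the highest level of the set and was called in no comparison. It was at 17.8, 39.2 and 51.0 CPM (lowest, median, highest) on standard cholecalciferol, 20.0, 37.4 and 47.8 CPM on increased cholecalciferol, 26.6, 47.5 and 61.5 CPM on the combination and 28.5, 30.5 and 41.0 CPM on 25(OH)D. The groups overlapped throughout, and no unadjusted p fell below 0.05. Its slope on the regional score was −0.02 (adjusted p = 0.610). Of 10 partners and related disulfide isomerases, 1 was called along the regional score, PDIA4 (0.07, adjusted p = 0.0475). This is below the share of all genes called on that score, 37.6% (19.3% upward). None was called between diets.

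DHCR7, at the branch between vitamin D precursor and cholesterol, was at 2.32, 3.71 and 5.66 CPM (lowest, median, highest) on standard cholecalciferol, 3.28, 5.57 and 9.44 CPM on increased cholecalciferol, 0.979, 3.27 and 7.10 CPM on the combination and 0, 2.87 and 6.85 CPM on 25(OH)D. The single library at 0 was 25(OH)D replicate 1. No comparison of diets reached an unadjusted p of 0.05 for this gene. Its slope on the regional score was −0.12 (adjusted p = 0.135).

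DHCR7 rose with microglial transcripts. In the 5 libraries with the highest microglia scores it was at 6.76, 9.44, 5.80, 3.62 and 8.82 CPM, and in the 5 with the lowest at 3.49, 1.53, 2.39, 3.42 and 5.66 CPM, ranges that overlap. The slope was 0.97 (adjusted p = 0.00536 by edgeR's quasi-likelihood test), or 3.75-fold over the range of that score. RXRA (0.40, adjusted p = 0.0174) and RXRB (0.33, adjusted p = 0.0361) were called as well, making 3 of 8 members, all upward, beside 29% of 13967 genes (15% upward). The microglia score itself ran against the regional score (r = −0.66) and with the oligodendrocyte score (r = 0.63) over the 34 libraries. With all 6 scores in 1 fit, none of the 3 was called: DHCR7 had 0.70 (adjusted p = 0.437), RXRA 0.14 (adjusted p = 0.781) and RXRB 0.31 (adjusted p = 0.509). Within file numbers 1 to 24 only DHCR7 was called, with RXRA at 0.36 (adjusted p = 0.0661) and RXRB at 0.31 (adjusted p = 0.0706). The call of RXRB was also lost without the expression filter (adjusted p = 0.0662) and, at adjusted p of 0.0503 to 0.0973, when any 1 of 7 libraries was left out: 25(OH)D replicates 1, 6 and 8, combination replicates 2 and 3, increased cholecalciferol replicate 1 and standard cholecalciferol replicate 8. VDR, at −0.52 (adjusted p = 0.118), was called without 25(OH)D replicate 1 alone (adjusted p = 0.0423).

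Other enzymes of late sterol synthesis were taken as a list of 10, all tested. On the microglia score 5 of 10 were called upward and none downward, beside 29% of all genes called (15% upward), with a median slope of 0.31 beside 0.00289 over all genes. MSMO1 (0.55), LSS (0.48), CYP51A1 (0.28) and NSDHL (0.32), which act between lanosterol formation and the removal of its methyl groups, were among them, and TM7SF2 was the fifth. Over all genes the calls on this score fell from 4057 to 212 with all 6 scores in 1 fit, and the list was not read in that fit. On the oligodendrocyte score LSS (0.47) and NSDHL (0.34) were called, 2 of 10 beside 4.57% of all genes. On the regional score 3 of 10 fell, beside 37.6% of all genes called (18.3% downward): EBP by 0.13, HSD17B7 by 0.14 and TM7SF2 by 0.08. None was called between diets. In the remaining lists the microglia score called DAB2 (0.40, 1 of 2 uptake genes), CYP46A1 (0.81, 1 of 3 oxysterol and bile acid hydroxylases) and P4HB, a disulfide isomerase (0.29, 1 of 10), all upward, and none of the 5 electron donors.

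On the oligodendrocyte score 0 of the 8 members were called by edgeR's quasi-likelihood test, beside 4.57% of 13968 genes. Before adjustment 2 had a p below 0.05 (20.4% of all genes), RXRG (0.56, adjusted p = 0.139) and RXRA (0.33, adjusted p = 0.109), and limma-voom called both (adjusted p = 0.0381 and 0.0392). On the astrocyte score 0 members were called (0.165% of 13967 genes), with DHCR7 at 1.75 (unadjusted p = 0.0152, as 11.8% of all genes below 0.05, adjusted p = 0.284). On the liver score 0 were called (0.122% of 13967 genes) and 0 had an unadjusted p below 0.05 (2.81% of all genes). DESeq2 and limma-voom called none of the members on the astrocyte and liver scores, and DESeq2 none on the oligodendrocyte score.

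CYP24A1 and CYP27B1, which degrade and make the active hormone, had very few counts. CYP24A1 was read 43 times among 275.671 M gene counts, and CYP27B1 15 times. Pooled over libraries this is 0.156 CPM (exact Poisson 95% interval 0.113 to 0.210) and 0.0544 CPM (0.0305 to 0.0897), intervals that cover counting error only. A low count need not mean that a transcript is absent, since a 3′ end that lies outside the annotated gene is not counted. CNP, a myelin enzyme gene, and ALDOC, an aldolase gene of astrocytes, were each at 0 in 17 of the 34 libraries, with highest levels of 1.47 and 0.979 CPM, although other markers of both cell types were abundant. Whether the 3′ ends of CYP24A1 and CYP27B1 were counted in full was not tested. CYP24A1 had at least 1 count in 17 of the 34 libraries. It had 1 count in 7 libraries, 2 or 3 in 6, and more in 4, the highest being 7 in combination replicate 1, 6 in increased cholecalciferol replicate 1, and 4 in both combination replicate 2 and 25(OH)D replicate 3. CYP27B1 had a count in 7 libraries, 3 of them with 1 count, and its highest were 5 in increased cholecalciferol replicate 4 and 3 in standard cholecalciferol replicate 8. A count for both genes was found in 5 libraries. A library without a count allowed a level of up to 3 counts of its total, which was 0.0988 to 2.24 CPM depending on depth, with a median of 0.450 CPM over the 34 libraries.

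By diet, CYP24A1 had 10 counts on standard cholecalciferol, 12 on increased cholecalciferol, 14 on the combination and 7 on 25(OH)D, or 0.113, 0.142, 0.254 and 0.149 CPM. The Poisson intervals of these 4 levels overlapped, the lowest bound being 0.0540 and the highest 0.427 CPM. In the combination, 11 of the 14 counts came from replicates 1 and 2. CYP27B1 had 6, 7, 1 and 1 counts in the same order, or 0.0675, 0.0827, 0.0182 and 0.0212 CPM, and these intervals overlapped as well. Overlap of these intervals is not a test of a difference between diets. Without the expression filter both genes entered the edgeR fit, and 0 members were called between diets. Counts this low can miss a difference.

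**Figure D5:**
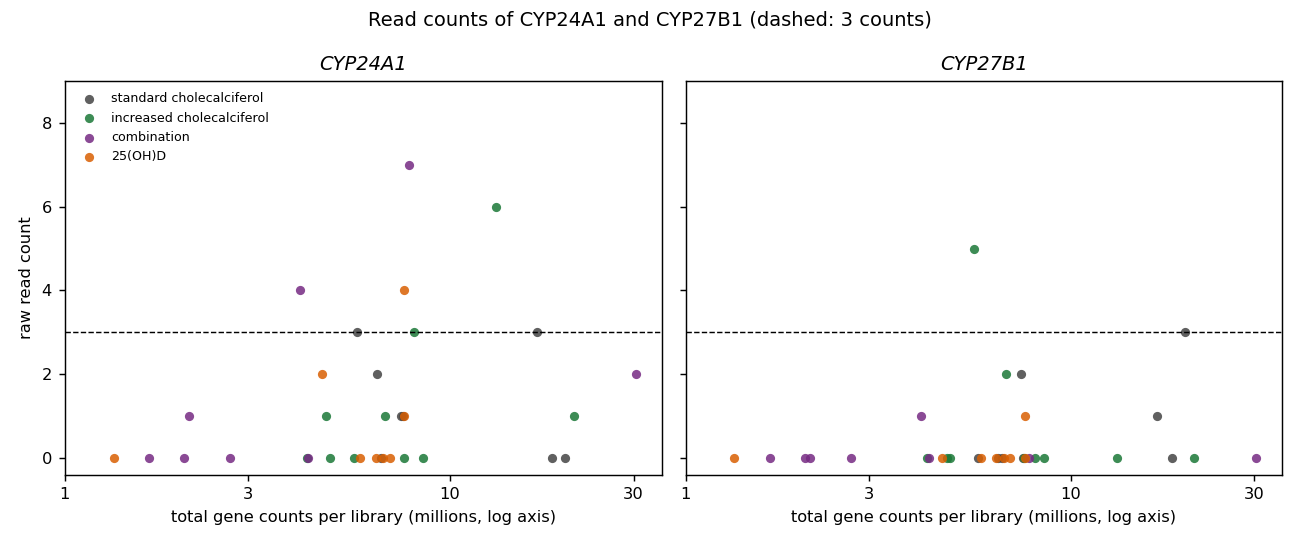
Raw read count (vertical axis) of CYP24A1 and CYP27B1 against the total gene count of the library in M (horizontal axis, log scale), 1 point per library, coloured by diet; the dashed line marks 3 counts. The highest CYP24A1 count is 7 and the highest CYP27B1 count is 5, and the deepest library, at 30.4 M, has 2 and 0.

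Across the 34 libraries, the transcripts most alike to a member in log2 CPM were listed for 4 members among 11133 filtered genes with a symbol. Depth and tissue make-up differed between the libraries and their part was not tested, so these correlations are descriptions. For VDR they were SLC41A3 (Pearson r = 0.73), CENPI (r = 0.69) and PHF19 (r = 0.68). RXRG was most like WWP1 (r = 0.77), KIF1C (r = 0.77) and ACSL1 (r = 0.74). CYP2R1 was most like P3H2 (r = 0.72), TRPM2 (r = 0.71) and PKD2 (r = 0.70), and CYP27A1 most like CXCR4 (r = 0.75), RERG (r = 0.71) and PDGFD (r = 0.69).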

How the data were processed

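RNA from tissue labelled muscle was sequenced by QuantSeq 3′ forward libraries, 1 per pig. The authors deposited raw counts of reads per Ensembl gene, 1 table per library and not normalized. FastQC, TopHat, HTSeq and DESeq2 were used by the authors, per the submitters' processing notes. Versions, genome build, annotation and strand setting were not given in the sources used here. Of all counted reads 16.4 to 29.9% lay outside genes, 3.63 to 4.68% were ambiguous and 11.2 to 20.7% aligned to several places, and these HTSeq categories (5 lines per file) were left out of totals and tests. No 2 files were identical. A table of gene names gave a symbol for 15029 of 31907 identifiers. Group sizes are stated as individuals, and p-values measure the spread between animals as far as that holds.

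Tests used edgeR 4.0.16 in R 4.3.3 (TMM, filterByExpr by diet, quasi-likelihood F-test, two-sided, Benjamini-Hochberg over all tested genes, threshold 0.05) on all 34 libraries with terms for diet and sex, and 1 numeric term for each of 6 tissue scores in separate fits. Scores use log2 CPM with a prior count of 3. Genes of a score were fitted and adjusted with the rest but left out of its counts of genes called and its ranks. Alternatives were DESeq2 1.42.0, limma 3.58.1 (voom), RLE scaling, no filter, other score definitions, subsets of file numbers and leaving out each library. The scripts were tested on simulated data. Marker lists covered skeletal muscle, oligodendrocytes, astrocytes, microglia, liver, cerebellum, forebrain, neurons, kidney, intestine, choroid plexus and endothelium. Named were all 10 members, the 3 most alike genes for 4 of them, and up to 4 called genes per pathway list and direction. The members, lists and scores were chosen with earlier results of these data known. No sequences or coordinates were used.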

Additional observations from a re-analysis of the deposited data

Results flagged for a closer look

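In 44 sets of levels (each of the 10 genes and the regional score, within each diet), the highest or lowest library was compared with the rest by Dixon's criterion, and 4 stood apart. Chance alone gives about 1 in 20 for evenly spread levels, which does not hold for sets that are mostly 0. CYP27A1 in increased cholecalciferol replicate 8 was at 31.94 CPM, with the nearest library of that diet at 19.21 CPM. CYP27B1 stood apart in increased cholecalciferol replicate 4 at 0.889 CPM (5 counts), with the nearest at 0.2944 CPM. It also did so in combination replicate 2 at 0.2449 CPM and in 25(OH)D replicate 5 at 0.1316 CPM, each a single read in a diet whose other libraries were at 0, a pattern that always meets the criterion.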

How the results depend on the processing

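No paired analysis was possible because the titles are single animal numbers and the replicate numbers follow accession order, so that they pair no samples. Each result was recomputed under up to 13 alternatives. No member was called between diets or sexes under any of them. With all 6 scores in 1 fit, 1 member in place of 2 was called on the regional score and 0 in place of 3 on the microglia score. In file numbers 1 to 24, with fewer libraries, the counts were 0 in place of 1 on the skeletal muscle score and 1 in place of 3 on the microglia score. On the oligodendrocyte score 1 in place of 0 was called there (RXRG), and limma-voom called 2 on that score. Leaving out 1 library gave 2 to 3 members on the regional score, 2 to 3 on the microglia score and 1 on the skeletal muscle score. RXRB on the microglia score lost its call in 7 of these 34 fits. The slope of RXRG on the regional score, −0.01, became 0.00439 with scores from the cerebellum and forebrain lists, 0.0852 without the 2 libraries farthest from the median score (standard cholecalciferol replicate 1 and increased cholecalciferol replicate 1) and 0.00517 without diet and sex terms, and ran from −0.0423 to 0.0412 with 1 library left out. The cause was not tested. The single fit of all scores for the 5 other scores, and leaving out libraries for the skeletal muscle and microglia scores, were chosen after seeing the data.

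Over all genes, counts of calls moved by more than 1.5 times as follows. All 6 scores together gave 2598 in place of 5258 (regional), 212 in place of 4057 (microglia), 86 in place of 639 (oligodendrocyte) and 5 in place of 23 (astrocyte). File numbers 1 to 24 gave 49 in place of 123 (skeletal muscle), 265 (oligodendrocyte), 0 (astrocyte), 4 in place of 17 (liver), 2 in place of 0 for the combination against increased cholecalciferol and 8 in place of 0 for 25(OH)D against the combination. Without file numbers 30 to 34 the counts were 75 (skeletal muscle), 14 (astrocyte), 1 and 2 for these 2 comparisons of diets. DESeq2 gave 1005 (oligodendrocyte) and 183 (astrocyte), no filter gave 14 (astrocyte) and 53 (liver), and a term for the run of file numbers gave 18 in place of 11 for sex and 1 for the combination against increased cholecalciferol. Leaving out standard cholecalciferol replicate 1 gave 202 genes on the skeletal muscle score. Depth limits VDR, DHCR7, CYP24A1 and CYP27B1 most, since 0 counts in a library of 1.34 M still allow a level of up to 2.24 CPM.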
